A study of Mus musculus with 23 samples.

Results

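A set of 10 receptor genes through which neutrophils read cytokines and growth factors were followed in sorted mouse neutrophils from bone marrow (BM), peripheral blood (PB) and lung, and in neutrophils with or without *Piezo1*. They were *Csf3r*, *Csf2ra*, *Csf2rb*, *Il17ra*, *Il4ra*, *Il6ra*, *Il10ra*, *Ifngr1*, *Tnfrsf1a* and *Tnfrsf1b*, chosen by name as the receptor chains for G-CSF, GM-CSF, IL-17, IL-4, IL-6, IL-10, interferon-gamma and TNF. All 10 of 10 were found by gene identifier among the 21878 genes of the expression tables, and all 10 passed the filter on low values in each comparison. The tissue experiment held 9 libraries from wild-type (WT) C57BL/6J mice, with n = 3 each for BM, PB and lung. The *Piezo1* experiment held 8 libraries, with n = 2 each for WT PB, cKO PB, WT lung and cKO lung. Mice were 7 to 12 weeks old and of both sexes, per the study's methods. The cKO mice carried *Piezo1* fl/fl with *Vav1-iCre*, which deletes in all hematopoietic cells, so that the loss was not confined to neutrophils. The labels name the other *Piezo1* libraries only as WT, and whether these carried the floxed allele or Cre is not stated there. PB and lung cells were first enriched by negative selection, and cells of all 3 tissues were then sorted as CD45+CD11b+Ly6G+. The study's methods describe cutting and enzymatic digestion (collagenase and DNase) for lung, a step not given for PB or BM. In a separate functional assay the study left the enzymes out, to avoid activating the cells. The part of digestion in the lung differences was not tested and cannot be told apart from that of the tissue. The study counts replicates of the tissue experiment as mice. For the *Piezo1* libraries the sources used here do not say whether those of a group came from separate animals, so p-values there measure only the spread between these libraries, which may be technical.

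Receptors of this kind lie in the cell membrane and couple a secreted ligand to the nucleus. Class I and II cytokine receptors (here the receptors for G-CSF, GM-CSF, IL-4, IL-6, IL-10 and interferon-gamma) pair with JAK kinases, which phosphorylate STAT transcription factors. IL-17 and TNF receptors instead recruit adaptor proteins that lead to NF-kB. In neutrophils, G-CSF drives production in the marrow and release to the blood, GM-CSF and TNF prime mature cells, and IL-10 is known as a brake on inflammatory genes.

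The values are FPKM, fragment counts scaled by library size and by gene length, so that levels of different genes can be set side by side. Recovered reads per library ran from 16502148 to 19330687 in the tissue experiment and from 9621120 to 15034817 in the *Piezo1* experiment, and the 10 receptors had between 508 and 272028 reads per library. The libraries carried the neutrophil markers of the sort: all 9 of 9 listed markers were present in each group. Their levels differed by tissue, with sums of 127560 to 145510 FPKM in BM, 54787 to 72038 in PB and 42481 to 46707 in lung. *Ly6g* was at 760.4 to 781.2, 92.4 to 116.1 and 53.0 to 55.7 FPKM. *Cxcr2* and *Fcgr4* were instead highest in PB, and *Cxcr4* was lowest in BM. The part of these shifts in the receptor differences was not tested. The B cell, T and NK cell, basophil, dendritic cell, endothelial and platelet lists each summed to at most 6.85 FPKM in any library, while monocyte, eosinophil and erythroid markers were higher in some groups and stand beside the results they move with. In bulk RNA, fewer cells of a type and less RNA per cell cannot be told apart. The targeted gene gave no check of the genotype labels, since *Piezo1* had 5 and 5 reads in WT PB, 3 and 10 in cKO PB, 8 and 8 in WT lung and 7 and 4 in cKO lung.

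Differences are given as log2 fold changes (log2FC) on the log2(FPKM + 1) scale from limma with Benjamini-Hochberg adjustment over all genes tested. A gene passed the test at an adjusted p under 0.05, and was called a differentially expressed gene (DEG) if its absolute log2FC was also over 1. The scaling matters here. The median gene had a log2FC of -0.54 in lung over PB, -0.70 in lung over BM and -0.12 in PB over BM, so a receptor at the same FPKM in lung as in PB lay above the median gene. Where rescaling the libraries by the median ratio of their genes turns a direction, that value stands beside the main one.

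*Csf3r*, the G-CSF receptor, was the most abundant of the 10 in all 7 groups, and its share of their summed FPKM was between 39.4% and 59.6%. In the tissue experiment, the sum over the 10 receptors was 1613 ± 28.1 FPKM in BM, 3962 ± 309 in PB and 3429 ± 20.6 in lung (SD, n = 3). The order below *Csf3r* differed by tissue. In BM and PB the next 2 were *Il17ra* and *Tnfrsf1a*, in that order in BM and the reverse in PB. In lung they were *Tnfrsf1b* and *Tnfrsf1a*. *Il10ra* was last in BM and PB and took rank 5 in lung, where *Il6ra* was last. Libraries of neighbours in this order overlapped only for *Ifngr1* and *Il6ra* in BM, and for *Ifngr1* with *Il4ra* and *Il6ra* with *Csf2ra* in PB; no neighbours overlapped in lung.

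**Figure D1:**
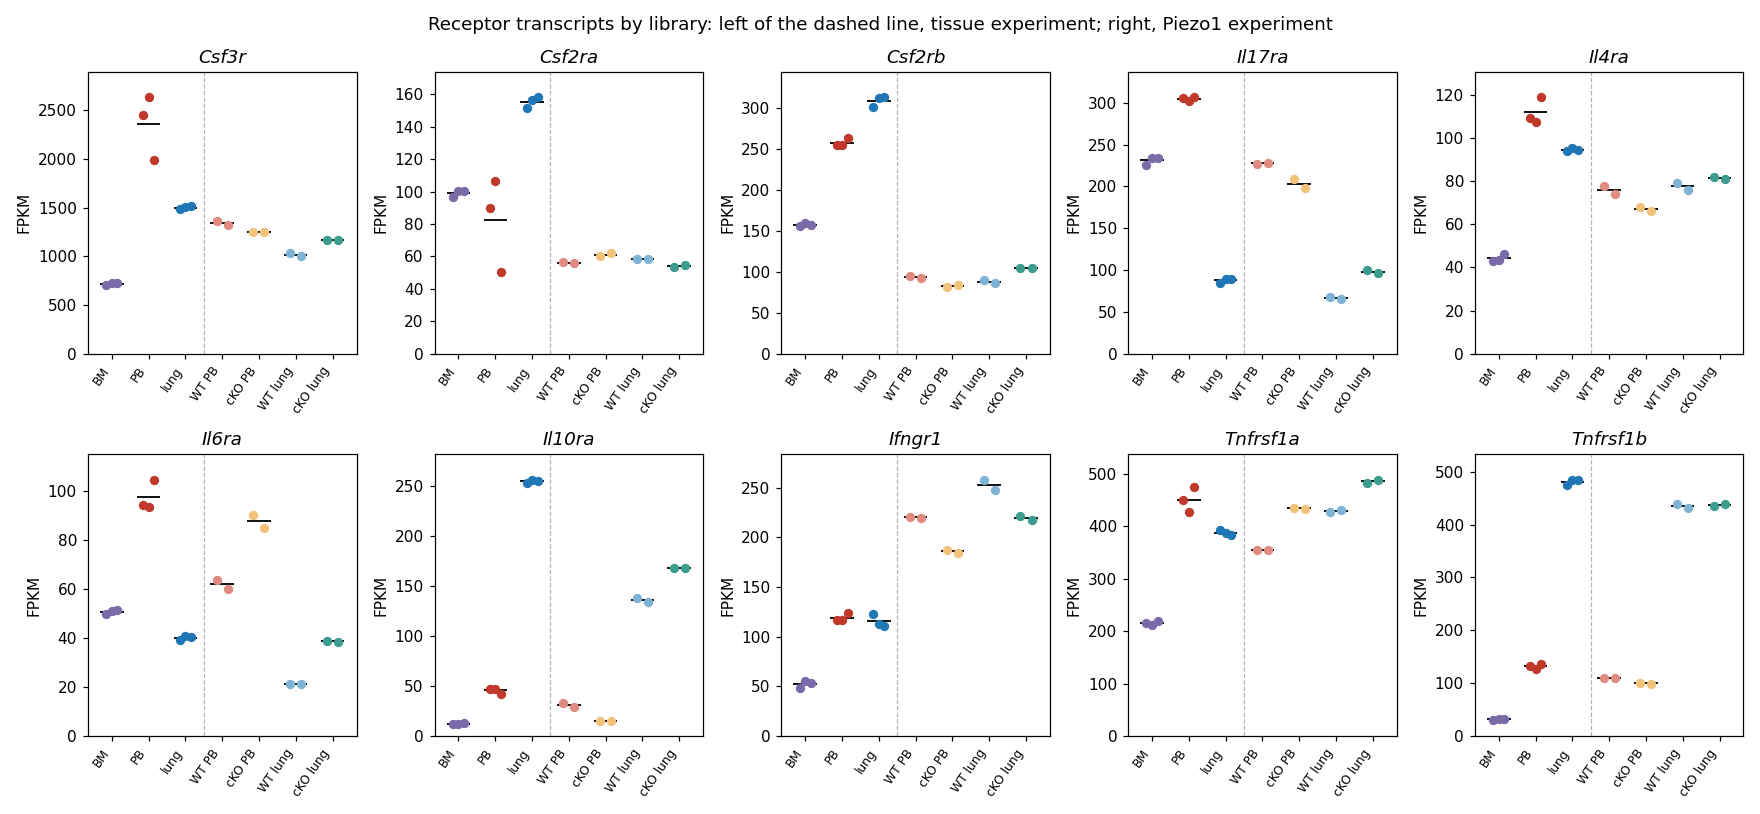
FPKM (y axis, linear, from 0) of each receptor in every library, by group (x axis); points are libraries and black lines group means, with 3 libraries a group left of the dashed line and 2 right of it. *Il10ra* and *Tnfrsf1b* are highest in lung in both experiments, *Il17ra* and *Il6ra* are lowest there, and 1 PB library lies low for *Csf3r* and *Csf2ra*; levels were normalised within each experiment.

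In lung over PB, 4 of the 10 receptors were DEGs, 2 in each direction. *Il10ra* and *Tnfrsf1b* rose, and *Il17ra* and *Il6ra* fell. After rescaling, and in edgeR and DESeq2, there were again 4, but 3 upward and 1 downward: *Csf2ra* was gained, with a rescaled log2FC of 1.59, and *Il6ra* was lost, with -0.64. Over all genes, 931 of 7482 were DEGs upward and 466 downward after rescaling. Of 7577 genes, edgeR with TMM factors called 1067 upward and 863 downward, and DESeq2 1079 and 842. The 3 tissue comparisons share libraries, as do the comparisons of the *Piezo1* experiment, so their values are set side by side only. In limma before rescaling, among all 7577 genes tested, 7.75% were DEGs that rose and 19.5% DEGs that fell. Counted by adjusted p alone, 9 of 10 receptors passed, near the 85.5% of all genes that did. The members' median log2FC was -0.13, against -0.54 over all genes. The same 4 receptors were DEGs, each in the same direction, in the WT libraries of the *Piezo1* experiment, where 7.5% of 7143 genes were DEGs that rose, 26.5% DEGs that fell, and 89% passed by adjusted p alone. There the members' median log2FC was 0.04 against -0.62 over all genes, and *Il6ra* was likewise no DEG after rescaling (-0.80), while *Tnfrsf1a* became one (1.00).

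The DEGs upward in lung over PB were a chain of the IL-10 receptor and 1 of the TNF receptors. *Il10ra* encodes the ligand-binding chain of the IL-10 receptor, and lies at chr9:45253837-45269149 (GRCm38). Its FPKM was 12.3, 12.04 and 12.7 in BM, 46.9, 47.3 and 42.5 in PB, and 253.1, 256.1 and 255.0 in lung. The 3 tissues did not overlap, and each step was many times the spread between libraries. The log2FC was 2.46 ± 0.057 (SE) in lung over PB (adjusted p = 9.96e-09), which is 5.5-fold on that scale. In PB over BM it was 1.80 (adjusted p = 8.89e-08). In lung over BM it was 4.26 (adjusted p = 1.23e-14), or 19.2-fold, and *Il10ra* ranked 57 from the top of 8236 genes. In the WT libraries of the *Piezo1* experiment it was 32.5 and 28.8 FPKM in PB and 137.6 and 134.0 in lung, with a log2FC of 2.11 (adjusted p = 6.92e-08).

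*Tnfrsf1b* encodes TNFR2, which lacks a death domain and recruits TRAF2, and *Tnfrsf1a* encodes TNFR1, which carries one. *Tnfrsf1b* was at 30.5, 32.03 and 31.5 FPKM in BM, 132.3, 126.8 and 135.8 in PB, and 474.0, 484.2 and 484.7 in lung. The 3 tissues were apart in every library. Its log2FC was 1.86 ± 0.05 in lung over PB (adjusted p = 2.1e-08), 2.04 in PB over BM (adjusted p = 2.39e-08) and 3.90 in lung over BM (adjusted p = 1.1e-14), the last being 14.9-fold. In the other experiment's WT libraries, lung was at 439.0 and 430.9 FPKM and PB at 110.5 and 109.3, a log2FC of 1.98 (adjusted p = 1.78e-09).

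*Tnfrsf1a* took another course. It was at 214.8, 210.9 and 219.2 FPKM in BM, 450.6, 426.2 and 475.5 in PB, and 393.5, 386.5 and 383.5 in lung. Both PB and lung lay above BM in every library, with log2FC of 1.06 (adjusted p = 9.88e-07) and 0.85 (adjusted p = 1.36e-10). Lung over PB gave a log2FC of -0.22 (adjusted p = 0.00717), a direction that turned to 0.41 after rescaling. In WT libraries of the *Piezo1* experiment the same difference was 0.27 (adjusted p = 9.73e-06).

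Because 2 genes of 1 library share its scaling, their ratio does not depend on it. *Tnfrsf1a* exceeded *Tnfrsf1b* 6.87-fold in BM and 3.42-fold in PB, while in lung *Tnfrsf1b* was the higher of the pair, at 1.24 times *Tnfrsf1a*. The log2 ratio of *Tnfrsf1b* to *Tnfrsf1a* was -2.78 ± 0.053 in BM, -1.77 ± 0.031 in PB and 0.31 ± 0.037 in lung (SD, n = 3), with no overlap between tissues. In the *Piezo1* experiment it was -1.69 ± 0.011 in WT PB and 0.02 ± 0.027 in WT lung (SD, n = 2). No test was run on the ratios.

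The upstream stretches of both TNF receptor genes are shown because the pair diverged in lung. They are the 250 bases before each gene's RefSeq start (GRCm38.p6), with capitals at letters of a searched motif. The motifs, sought on both strands, were AP-1 (TGANTCA), STAT (TTCNNNGAA, which reads the same on both strands), C/EBP (TTGCNNAA), PU.1 (GAGGAA) and the NF-kB consensus.
Tnfrsf1b, chr4:145246871-145247120, minus strand: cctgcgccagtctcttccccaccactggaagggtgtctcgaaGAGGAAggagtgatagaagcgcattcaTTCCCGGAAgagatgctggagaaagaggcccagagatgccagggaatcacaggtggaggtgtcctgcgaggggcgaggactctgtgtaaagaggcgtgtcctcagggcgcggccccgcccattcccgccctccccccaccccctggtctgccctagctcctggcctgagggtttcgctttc
Tnfrsf1a, chr6:125349473-125349722, plus strand: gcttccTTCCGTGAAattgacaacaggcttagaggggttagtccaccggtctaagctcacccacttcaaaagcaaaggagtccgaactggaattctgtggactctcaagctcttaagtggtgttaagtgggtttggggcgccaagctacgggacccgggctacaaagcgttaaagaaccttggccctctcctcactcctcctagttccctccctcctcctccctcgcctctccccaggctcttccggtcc
The capitals mark 1 PU.1 and 1 STAT match in *Tnfrsf1b*, which do not overlap, and 1 STAT match in *Tnfrsf1a*. STAT letters occurred in 7.02% and PU.1 letters in 23.3% of the 32851 promoters of this length. RefSeq entries matched 7 of the 10 receptors, the others being *Csf2rb*, *Il17ra* and *Il10ra*. Of the 7, 2 held the STAT letters, 4 PU.1, 1 NF-kB, and 0 AP-1 or C/EBP, against 7.25%, 6.75% and 9.56% of all promoters for NF-kB, AP-1 and C/EBP. A match of letters is a description of the window only.

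The DEGs downward in lung over PB were chains of the IL-17 and IL-6 receptors. *Il17ra*, the chain shared by receptors for several IL-17 cytokines, lies at chr6:120463181-120483731. Its FPKM was 225.2, 234.2 and 234.2 in BM, 305.2, 301.9 and 306.3 in PB, and 84.2, 89.9 and 89.2 in lung. Lung lay below both other tissues in every library. The log2FC was -1.78 ± 0.05 in lung over PB (adjusted p = 2.5e-08) and -1.39 in lung over BM (adjusted p = 4.31e-11), the latter -0.56 and no DEG after rescaling, while PB over BM was 0.40 (adjusted p = 1.17e-04). WT libraries of the *Piezo1* experiment gave 226.6 and 228.3 FPKM in PB and 68.2 and 65.8 in lung, a log2FC of -1.75 (adjusted p = 7.96e-09).

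*Il6ra* encodes the IL-6-binding chain, which signals through gp130, the product of *Il6st*. Its FPKM was 49.9, 50.9 and 51.3 in BM, 94.2, 93.6 and 104.5 in PB, and 39.1, 40.9 and 40.4 in lung. PB stood above the other 2 tissues. Lung over PB had a log2FC of -1.26 ± 0.06 (adjusted p = 4.12e-07), or -0.64 and no DEG after rescaling, and PB over BM one of 0.93 (adjusted p = 2.43e-06). Lung over BM was -0.33 (adjusted p = 2.9e-06) and turned to 0.49 after rescaling. In WT libraries of the *Piezo1* experiment *Il6ra* was at 63.6 and 60.0 FPKM in PB and 21.1 and 21.1 in lung, with a log2FC of -1.51 (adjusted p = 1.3e-07).

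The stretch before the *Il6ra* start is given as the counterpart from a receptor that fell, with the same motifs sought.
Il6ra, chr3:89913197-89913446, minus strand: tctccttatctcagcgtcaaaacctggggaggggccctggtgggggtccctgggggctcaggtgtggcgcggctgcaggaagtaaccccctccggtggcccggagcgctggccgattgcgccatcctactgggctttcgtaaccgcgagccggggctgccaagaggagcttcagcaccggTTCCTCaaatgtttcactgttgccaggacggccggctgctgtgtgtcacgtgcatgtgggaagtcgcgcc
Its capitals mark 1 PU.1 match, on the opposite strand, and it held none of the other 4 motifs.

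None of the growth factor receptors was a DEG in lung over PB, though *Csf2ra* was after rescaling. *Csf3r* was at 703.9, 728.3 and 724.7 FPKM in BM, 2453, 2633 and 1996 in PB, and 1490.2, 1504 and 1514 in lung. BM was lowest in every library and PB highest, with PB library 3 below the other 2. PB over BM had a log2FC of 1.70 (adjusted p = 1.84e-06), and lung over BM one of 1.06 (adjusted p = 6.43e-12). Lung over PB gave -0.64 ± 0.099 (adjusted p = 3.8e-04), close to the median gene, and the call was lost after rescaling, with -0.02 (adjusted p = 0.87). In WT libraries of the *Piezo1* experiment it was -0.40 (adjusted p = 2.46e-06), which turned to 0.33 after rescaling.

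*Csf2ra* encodes the GM-CSF-binding chain, and *Csf2rb* the common beta chain that GM-CSF, IL-3 and IL-5 receptors share. *Csf2ra* was at 96.4, 100.6 and 100.4 FPKM in BM, 89.6, 106.8 and 50.6 in PB, and 151.7, 156.4 and 157.9 in lung. Lung was the highest, and PB library 3 lay far below the rest. Lung over PB had a log2FC of 0.97 ± 0.24 (adjusted p = 0.00467), or 0.66 (adjusted p = 1.28e-05) without PB library 3. It was a DEG without PB library 1 or 2, at 1.07 and 1.19, and after rescaling, at 1.59. Lung over BM was 0.64 (adjusted p = 5.59e-09). In WT libraries of the *Piezo1* experiment *Csf2ra* was 56.3 and 56.1 FPKM in PB and 58.4 and 58.1 in lung, a difference of 0.05 (adjusted p = 0.205) that did not pass, and that passed at 0.77 (adjusted p = 1.31e-06) after rescaling.

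*Csf2rb* was at 155.9, 160.3 and 157.5 FPKM in BM, 255.0, 255.0 and 264.3 in PB, and 302.3, 312.6 and 313.4 in lung. It rose at each step, by a log2FC of 0.71 in PB over BM (adjusted p = 3.52e-06) and 0.26 in lung over PB (adjusted p = 0.00109), with no overlap between tissues. WT libraries of the *Piezo1* experiment gave -0.09 in lung over PB (adjusted p = 0.0435), which turned to 0.63 after rescaling and was lost without WT lung library 2 or either WT PB library, at adjusted p between 0.0644 and 0.22. Its neighbour *Csf2rb2*, a mouse-specific beta chain for IL-3, is a near copy, and 3.47% of 150-base windows of the longest *Csf2rb* transcript also occur in *Csf2rb2* transcripts, so reads of that part cannot be assigned. *Csf2rb2* was at 21.8 ± 0.48 FPKM in BM, 31.3 ± 2.08 in PB and 40.4 ± 1.39 in lung (SD, n = 3).

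*Il4ra* and *Ifngr1* rose from BM to PB, and before rescaling they differed little between PB and lung. *Il4ra*, the IL-4-binding chain, was at 43.2, 43.5 and 46.1 FPKM in BM, 109.4, 107.4 and 118.8 in PB, and 94.1, 95.3 and 94.6 in lung. PB over BM had a log2FC of 1.32 (adjusted p = 3.5e-07) and lung over BM 1.08 (adjusted p = 3.52e-10). Lung over PB was -0.24 (adjusted p = 0.00379) and turned to 0.38 after rescaling. In WT libraries of the *Piezo1* experiment it was 0.03 (adjusted p = 0.468), or 0.75 (adjusted p = 3.73e-06) after rescaling.

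*Ifngr1*, the ligand-binding chain for interferon-gamma, was at 48.6, 55.3 and 53.1 FPKM in BM, 116.7, 116.4 and 123.8 in PB, and 123.0, 112.6 and 111.1 in lung. PB and lung overlapped, and both lay above BM. PB over BM had a log2FC of 1.17 (adjusted p = 9.62e-07) and lung over BM 1.13 (adjusted p = 1.02e-08). Lung over PB was -0.04 (95% CI -0.18 to 0.09, adjusted p = 0.515), the one receptor that did not pass, and it turned to 0.58 (adjusted p = 8.76e-05) after rescaling. WT libraries of the *Piezo1* experiment did not overlap and gave 0.20 (adjusted p = 2.83e-04), or 0.93 (adjusted p = 1.56e-07) after rescaling.

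Against BM, receptors moved mostly upward. In PB over BM, 9 of 10 rose by adjusted p (73.1% of 8237 genes passed in either direction), 6 of them as DEGs, against 7.85% of genes that were DEGs upward. No receptor was a DEG downward (14.1% of genes were), and none fell at an unadjusted p under 0.05. Neither edgeR nor DESeq2 called a receptor downward, where 1469 genes (edgeR with TMM factors) and 1450 genes (DESeq2) were. In lung over BM all 10 passed (92.6% of 8236 genes did), with 5 DEGs upward, against 9.86% of genes, and 1, *Il17ra*, downward, against 36% of genes. After rescaling, and in edgeR and DESeq2, 8 were DEGs upward, with *Csf2ra*, *Csf2rb* and *Tnfrsf1a* gained at 1.47, 1.80 and 1.68, and 0 downward, since *Il17ra* was at -0.56. The calls over all genes shifted too: after rescaling, 1582 of 8059 genes were DEGs upward and 1171 downward. Of the 8236 genes, edgeR with TMM factors called 1752 upward and 1900 downward, and DESeq2 1815 and 1819. The members' median log2FC was 1.12 in PB over BM and 1.01 in lung over BM, against -0.12 and -0.70 over all genes. Other markers moved with BM. The neutrophil progenitor list summed to 21.9 to 23.1 FPKM in BM and at most 3.65 in PB or lung. Most of the BM sum was *Mki67*, at 15.6 to 16.7 FPKM. *Ms4a3* was at 3.56 FPKM or more in BM and at most 0.06 in PB or lung. *Prtn3* ran higher in PB, at 1.77 to 2.44 FPKM, than in BM, at 1.34 to 1.81, with overlap. *Mpo*, *Elane*, *Ctsg* and *Cd34* were at most 0.68 FPKM in BM. *Ly6c2* of the monocyte list averaged 660.5 FPKM in BM. *C1qa* and *C1qb* of that list were also highest in BM, at most 6.58 FPKM. Its *Csf1r* and *Adgre1* were lowest in BM, at 41.0 to 44.6 and 9.59 to 10.3 FPKM. In PB these 2 genes were at 127.1 to 141.5 and 28.4 to 31.0 FPKM. *Ear2* of the eosinophil list was at 57.4 to 64.9 FPKM in BM and at most 1.43 in PB or lung. *Ccr3* of that list was lower in BM, at 0.588 to 0.867 FPKM, than in PB, at 1.46 to 2.11. *Epx*, *Prg2* and *Il5ra* were at most 0.13 FPKM in BM. Their part in these differences was not tested.

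Beside the lung over PB differences, the monocyte and macrophage list summed to 253.8 to 302.1 FPKM in PB and 187.3 to 192.7 in lung, with 3 of its 10 genes, *Csf1r*, *Ly6c2* and *Adgre1*, at a group mean of 1 FPKM or more in both. Its macrophage genes *C1qa*, *C1qb*, *Marco* and *Ms4a7* were at most 1.097 FPKM in lung. The epithelial list summed to 1.52 to 2.87 FPKM in lung and at most 0.396 in PB. The part of either list in the receptor differences was not tested.

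PB library 3 of the tissue experiment stood apart for *Csf3r* and *Csf2ra*. The count of DEGs was 4 in lung over PB and 6 in PB over BM both with it and without it. Without PB library 3, *Csf3r* had a log2FC of -0.76 in lung over PB and 1.82 in PB over BM. *Csf2ra* in PB over BM went from -0.33 (adjusted p = 0.236) to -0.02 (adjusted p = 0.801) and passed in neither. It did pass, at -0.55 (adjusted p = 0.0407), when PB library 2 was left out.

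**Figure D2:**
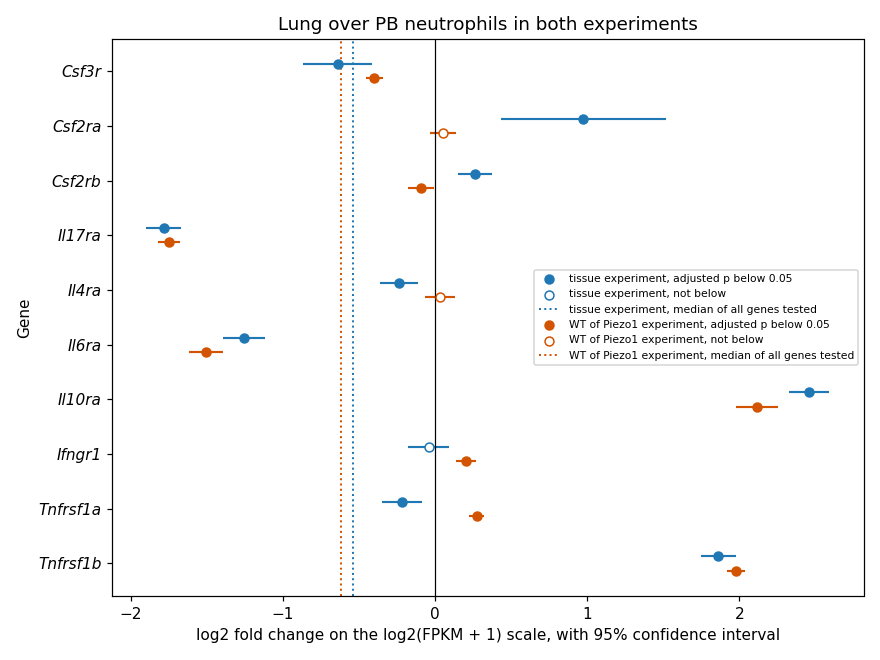
Log2FC of each receptor in lung over PB (x axis; genes on the y axis) in the tissue experiment and in WT libraries of the *Piezo1* experiment; bars are 95% confidence intervals, filled points passed at an adjusted p under 0.05, and dotted lines are the median of all genes (-0.54 and -0.62). *Il10ra* and *Tnfrsf1b* lie to the right and *Il17ra* and *Il6ra* to the left in both; rescaling turns the sign of *Il4ra*, *Ifngr1* and *Tnfrsf1a* in the tissue experiment and of *Csf3r* and *Csf2rb* in the other.

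Most of these receptors work with a partner chain, and 6 of 10 listed partner chains were tested in lung over PB. Of these, 3 rose, 2 fell and 1 did not pass, with a median log2FC of 0.18 against -0.54 over all genes. *Il2rg*, the common gamma chain that pairs with *Il4ra* in the type I IL-4 receptor, was at 5.94 ± 0.45 FPKM in PB and 62.8 ± 2.497 in lung (SD, n = 3), a log2FC of 3.20 (adjusted p = 6.9e-09), the one DEG of the list. *Il13ra1*, the partner of *Il4ra* in the type II receptor, was higher in PB than in lung, at 128.0 ± 10.6 and 86.4 ± 2.23 FPKM. Its log2FC was -0.56 (adjusted p = 9.48e-05), near the median gene.

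Ratios within libraries set these pairs side by side. *Il4ra* exceeded *Il2rg* 18.9-fold in PB, 4.02-fold in BM and 1.51-fold in lung, with log2 ratios of 4.24 ± 0.19, 2.01 ± 0.084 and 0.59 ± 0.048 (SD, n = 3) that did not overlap. In the *Piezo1* experiment *Il4ra* exceeded *Il2rg* 4.73-fold in WT PB, and *Il2rg* exceeded *Il4ra* 1.08-fold in WT lung. The log2 ratios there were 2.24 ± 0.081 and -0.11 ± 0.065 (SD, n = 2). For IL-10 the ligand-binding chain overtook its partner: *Il10rb* exceeded *Il10ra* 4.13-fold in BM and 2.09-fold in PB, and *Il10ra* exceeded *Il10rb* 2.69-fold in lung. *Il10rb* itself was at 95.1 ± 3.97 FPKM in PB and 94.6 ± 2.75 in lung, a log2FC of -0.01 (adjusted p = 0.899). In WT libraries of the *Piezo1* experiment the log2 ratio of *Il10ra* to *Il10rb* was -2.60 ± 0.10 in PB and 0.04 ± 0.0088 in lung (SD, n = 2).

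The interferon-gamma pair shifted by a smaller step in the same sense. The log2 ratio of *Ifngr1* to *Ifngr2* was -0.68 ± 0.12 in BM, -0.03 ± 0.11 in PB and 0.54 ± 0.057 in lung (SD, n = 3), without overlap. *Ifngr2* fell in lung over PB by 0.61 on the log2 scale (adjusted p = 1.45e-05), again close to the median gene. In the GM-CSF pair, *Csf2rb* was above *Csf2ra* in every library, 1.59-fold in BM, 3.29-fold in PB and 1.99-fold in lung. The log2 ratio in PB had an SD of 0.59, with PB library 3 at -2.39.

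Partners of *Il6ra* and *Il17ra* were at or near 0. *Il6st* had at most 20 reads in any library, and was at 0 in all 4 PB libraries of the *Piezo1* experiment and in cKO lung. *Il17rc*, which pairs with *Il17ra* for IL-17A, had 0 reads in all libraries but WT PB, where it had 13 to 15. A count of 0 allows up to 0.155 to 0.312 RPM (reads scaled by library size), depending on the library, with counting error only.

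**Figure D3:**
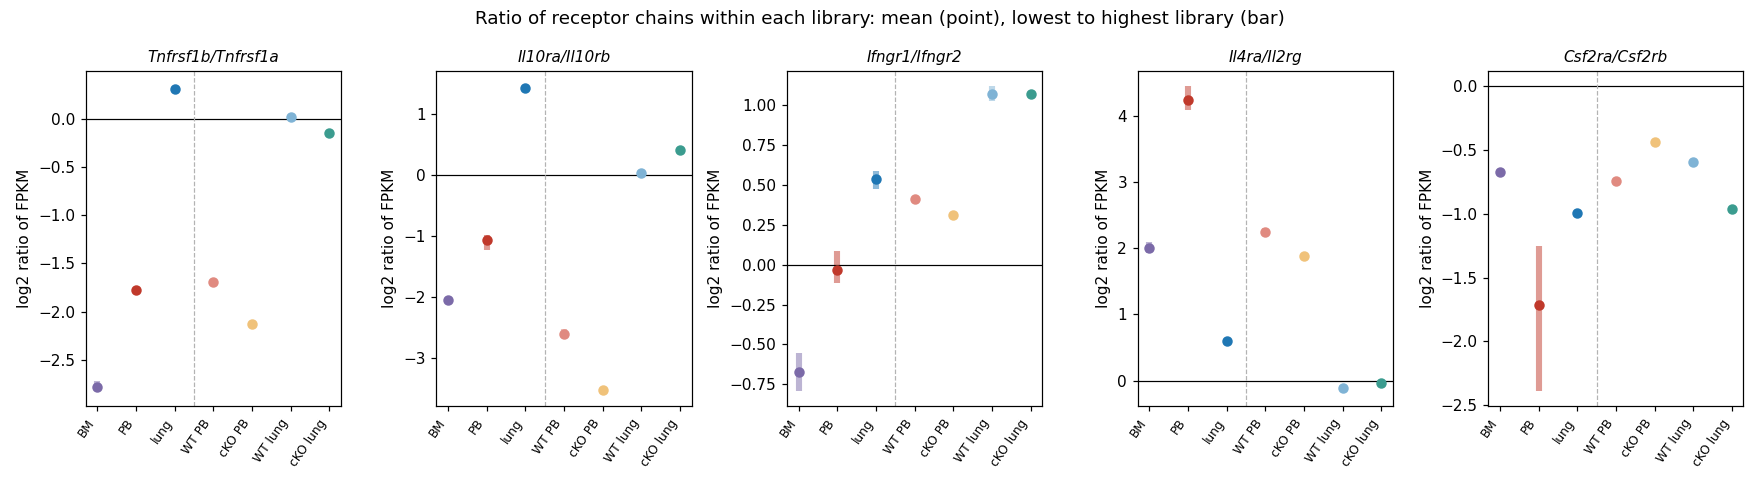
Log2 ratio of the FPKM of 2 receptor chains within each library (y axis) by group (x axis), for 5 pairs; points are means and bars run from the lowest to the highest library, with 3 libraries a group left of the dashed line and 2 right of it. The horizontal line marks equal FPKM, which the *Tnfrsf1b*/*Tnfrsf1a* and *Il10ra*/*Il10rb* ratios cross between PB and lung in the tissue experiment.

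Transcripts of the ligands were mostly undetected. Of 18 listed ligand genes, 4 were tested in lung over PB, of which 3 rose and 1 fell, with a median log2FC of 1.19. *Csf3*, which encodes G-CSF, had 0 reads in PB and 781 to 839 in lung, or 17.6 ± 0.30 FPKM (SD, n = 3). *Tnf* was at 33.1 ± 6.89 FPKM in PB and 133.6 ± 1.63 in lung, a log2FC of 2.00 (adjusted p = 2.99e-06). *Ltb*, the lymphotoxin beta chain, fell from 245.2 ± 16.7 to 87.7 ± 4.12 FPKM, a log2FC of -1.47 (adjusted p = 3.27e-07), or -0.93 relative to the median gene. *Il10* had 20 to 39 reads in lung and 0 in PB of the tissue experiment, and was below the filter there. In WT libraries of the *Piezo1* experiment it had 67 to 83 reads in lung and 0 in PB. There it was tested, and was a DEG upward with a log2FC of 2.27 (adjusted p = 1.05e-06).

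Downstream of the class I and II receptors, all 11 listed JAK and STAT genes were tested, and in lung over PB 3 rose, 7 fell and 1 did not pass. Their median log2FC was -0.34, against -0.54 over all genes, and 7 of the 11 lay above the median gene. *Stat5b*, whose product carries signals of G-CSF and GM-CSF, was a DEG downward, from 52.1 to 19.4 FPKM (log2FC -1.38, adjusted p = 1.41e-07). Relative to the median gene it was at -0.84, within the fold limit of a DEG. The receptor shedding list held 4 tested genes of 6, of which 3 fell and 0 rose, with the DEG *Frmd8*, an iRhom-binding protein that stabilises the sheddase ADAM17, at a log2FC of -1.48 (adjusted p = 4.41e-07). *Frmd8* too was within the fold limit relative to the median gene, at -0.94.

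Adaptors of the TNF and IL-17 receptors split. Of 20 tested, 5 rose and 13 fell in lung over PB, with a median log2FC of -0.66 against -0.54 over all genes, and 9 lay above the median gene. *Traf1*, which binds TNFR2 with TRAF2, was at 0.148 ± 0.032 FPKM in PB and 30.0 ± 0.22 in lung (SD, n = 3), a log2FC of 4.76 (adjusted p = 1.04e-09). *Birc3*, the cIAP2 ubiquitin ligase of the TNF receptor complex, rose from 75.3 to 387.9 FPKM (log2FC 2.35, adjusted p = 1.45e-08). *Tradd*, the adaptor of the TNFR1 death domain, fell from 9.89 to 3.13 FPKM (log2FC -1.39, adjusted p = 4.22e-06), and *Rnf31*, a subunit of the linear ubiquitin ligase, fell from 61.0 to 23.5 FPKM (log2FC -1.34, adjusted p = 5.37e-07). These 2 falls were -0.86 and -0.80 relative to the median gene, within the fold limit.

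Of 16 tested feedback genes, which curb cytokine signals, 5 rose and 10 fell in lung over PB, with a median log2FC of -0.57, and 7 lay above the median gene. *Tnfaip3*, encoding the NF-kB inhibitor A20, rose from 73.2 to 739.9 FPKM (log2FC 3.33, adjusted p = 3.89e-08). *Zc3h12a*, encoding the RNase Regnase-1, rose from 53.0 to 297.1 FPKM (log2FC 2.48, adjusted p = 4.28e-07). *Usp18*, an inhibitor of type I interferon signalling, fell from 32.8 to 7.78 FPKM (log2FC -1.95, adjusted p = 1.44e-07), and *Pias3*, an inhibitor of STAT3, fell from 15.9 to 3.29 FPKM (log2FC -1.96, adjusted p = 2.63e-06).

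Other receptors of the same families were sparser. Of 26 listed class I and II cytokine receptors, 6 were tested, and 2 rose and 1 fell, with 5 above the median gene. *Ifnar1*, a chain of the type I interferon receptor, rose from 28.3 ± 3.17 to 105.0 ± 1.65 FPKM (log2FC 1.86, adjusted p = 2.87e-07). In the TNF receptor superfamily 10 of 23 others were tested, of which 3 rose and 7 fell, with a median log2FC of -0.52, and 5 lay above the median gene. *Ltbr*, the lymphotoxin beta receptor, fell from 76.0 to 11.5 FPKM (log2FC -2.62, adjusted p = 6.17e-09), and *Relt* fell from 58.7 to 8.71 FPKM (log2FC -2.61, adjusted p = 1.45e-07). *Tnfrsf21*, or death receptor 6, fell (log2FC -1.28, adjusted p = 2.09e-07, but -0.74 relative to the median gene), and *Tnfrsf26* rose from 2.44 to 6.63 FPKM (log2FC 1.15, adjusted p = 1.74e-05). Growth factor receptor tyrosine kinases had 3 of 16 genes tested, with 2 that fell and 0 that rose, and all 3 lay above the median gene.

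For each receptor, the genes most like it over the 9 tissue libraries were sought among 5098 others with a mean of at least 5 FPKM, by Pearson's r of log2(FPKM + 1). These libraries fall into 3 tissues, so r mostly follows the 3 tissue levels. Many genes were nearly as close as those named: r was above 0.99 for 133 genes with *Il17ra*, 105 with *Il10ra* and 100 with *Tnfrsf1b*. For *Csf2ra* there were 2 such genes, the fewest. *Il10ra* was most like *Per1* (r = 1.00), a circadian clock gene, at 23.9, 63.8 and 238.0 FPKM in BM, PB and lung, and next *Dusp16* (r = 1.00), a MAP kinase phosphatase. *Tnfrsf1b* was closest to *Napa* and *Hnrnph2*, *Il17ra* to *Cnr2*, the cannabinoid receptor type 2, and *AI467606*, and *Il6ra* to *Ccdc71l* and *Apbb1ip*. *Csf3r* was closest to *Stat6* and *Trim30a*, *Csf2rb* to *Neurl3* and *Spata13*, and *Ifngr1* to *Bmf* and *Metrnl*. *Il4ra* and *Tnfrsf1a* shared the same first match, *Clec7a* (the beta-glucan receptor Dectin-1), followed by *Tspan13* and *Il13ra1*. *Csf2ra* was closest to *Leng8* and *Eif2s3y*, and both, like *Csf2ra*, were lowest of the 3 PB libraries in library 3, at 28.0 and 22.6 FPKM. After rescaling, both named genes were kept for 1 receptor (*Il10ra*), 1 of the 2 for 1 receptor (*Csf2ra*) and neither for the other 8.

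The *Piezo1* experiment asked whether loss of this mechanosensitive ion channel shifted neutrophil transcripts, and in lung 8 of 10 receptors passed by adjusted p, all with an absolute log2FC under 1. Of these, 6 rose in cKO over WT, among 35% of 6434 genes that rose, and 2 fell, among 15.8% of genes. The median gene had a log2FC of 0.09, and the members' median was 0.19. No receptor was a DEG in limma, where 0.995% of genes were, nor by fold and an unadjusted p under 0.05. None was a DEG in edgeR or DESeq2 either. Of the 6434 genes, edgeR with TMM factors called 219 upward and 126 downward, and DESeq2 199 and 112.

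*Il6ra* rose by the widest margin, from 21.1 and 21.1 FPKM in WT lung to 38.7 and 38.4 in cKO lung, a log2FC of 0.84 ± 0.045 (adjusted p = 5.08e-05). *Il17ra* rose from 68.2 and 65.8 to 99.9 and 96.2 FPKM (log2FC 0.54, adjusted p = 1.09e-04). Both are the receptors that were DEGs downward in lung over PB. *Il10ra* rose from 137.6 and 134.0 to 167.7 and 168.2 FPKM (log2FC 0.30, adjusted p = 3.05e-04).

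Smaller rises were seen for *Csf2rb* (log2FC 0.25, adjusted p = 0.00138), *Csf3r* (0.20, adjusted p = 4.32e-04) and *Tnfrsf1a* (0.18, adjusted p = 7.36e-04). *Ifngr1* fell from 258.1 and 248.1 to 221.2 and 217.8 FPKM (log2FC -0.20, adjusted p = 0.00138), and *Csf2ra* fell with a log2FC of -0.11 (adjusted p = 0.0395), a call that was lost when any 1 library was left out, at adjusted p between 0.0693 and 0.147. *Il4ra* gave 0.07 (95% CI -0.02 to 0.15, adjusted p = 0.163), which turned to -0.04 after rescaling. *Tnfrsf1b* gave 0.01 (95% CI -0.05 to 0.06, adjusted p = 0.818), which turned to -0.11 (adjusted p = 0.00812) after rescaling.

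In PB, 8 of 10 receptors passed, and 6 of them fell in cKO over WT, among 23.2% of 7256 genes that fell. *Il10ra* fell from 32.5 and 28.8 FPKM in WT to 15.1 and 14.8 in cKO, with no overlap and a log2FC of -0.99 ± 0.075 (adjusted p = 2.93e-04). It fell just short of the fold limit for a DEG in limma, where 3.65% of genes were DEGs in either direction. In limma 0 receptors were DEGs, also by fold and an unadjusted p under 0.05, whereas edgeR and DESeq2 on recovered reads each called 1, *Il10ra*, as did limma without WT library 2.

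*Ifngr1* fell from 220.4 and 219.8 to 187.1 and 184.6 FPKM (log2FC -0.24, adjusted p = 0.00289). The falls of *Csf2rb* (-0.19, adjusted p = 0.0143), *Il4ra* (-0.17, adjusted p = 0.0256), *Il17ra* (-0.16, adjusted p = 0.021) and *Tnfrsf1b* (-0.14, adjusted p = 0.0344) were small. Each of these 4 calls was lost without WT library 1 or WT library 2, at adjusted p between 0.0831 and 0.253.

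Rising with the cKO in PB were 2 receptors, among 26.5% of genes. *Il6ra* went from 63.6 and 60.0 to 90.2 and 85.0 FPKM (log2FC 0.50 ± 0.056, adjusted p = 7.73e-04), and *Tnfrsf1a* from 354.2 and 354.2 to 435.6 and 433.4 FPKM (log2FC 0.29, adjusted p = 0.00114). *Csf3r* gave -0.10 (95% CI -0.19 to -0.01, adjusted p = 0.0547) and *Csf2ra* 0.12 (95% CI 0.0020 to 0.23, adjusted p = 0.0838). *Csf3r* passed without either cKO library, at adjusted p = 0.0137 and 0.0088, and after rescaling (adjusted p = 0.0397), and *Csf2ra* passed without cKO library 1 (adjusted p = 0.0396).

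Erythroid transcripts moved with the genotype in PB. The 6 listed genes summed to 24.8 to 26.7 FPKM in WT PB and 1011 to 1136 in cKO PB, with *Alas2*, an enzyme of heme synthesis in red cell precursors, at 0 in WT and 5.96 to 6.20 in cKO. In lung the list summed to at most 5.12 FPKM in either genotype. Neutrophil markers, led by *S100a8*, summed to 89334 to 92779 FPKM in WT lung and 67675 to 72063 in cKO lung. Singly, *S100a8*, *S100a9*, *Retnlg*, *Ly6g* and *Fcgr4* were lower in cKO lung, and *Mmp8* and *Cxcr4* overlapped. *Cxcr2* was higher, at 408.1 to 412.1 FPKM in cKO lung against 339.8 to 345.9 in WT lung. *Itgam*, which encodes the sort marker CD11b, was higher too, at 194.6 to 195.5 against 157.4 FPKM. *Csf1r* of the monocyte list was at 88.5 to 89.5 FPKM in WT lung and 111.5 to 113.6 in cKO lung, and *Adgre1* at 31.01 to 32.4 and 35.5 to 37.5. *Ly6c2* of that list went the other way, at 92.4 to 92.8 FPKM in WT lung and 72.3 to 78.4 in cKO lung. The whole list summed to 212.8 to 214.8 FPKM in WT lung and 221.9 to 228.5 in cKO lung. The eosinophil list summed to 1.58 to 2.51 FPKM in WT lung and 4.60 to 5.81 in cKO lung. Their part in the receptor differences was not tested.

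**Figure D4:**
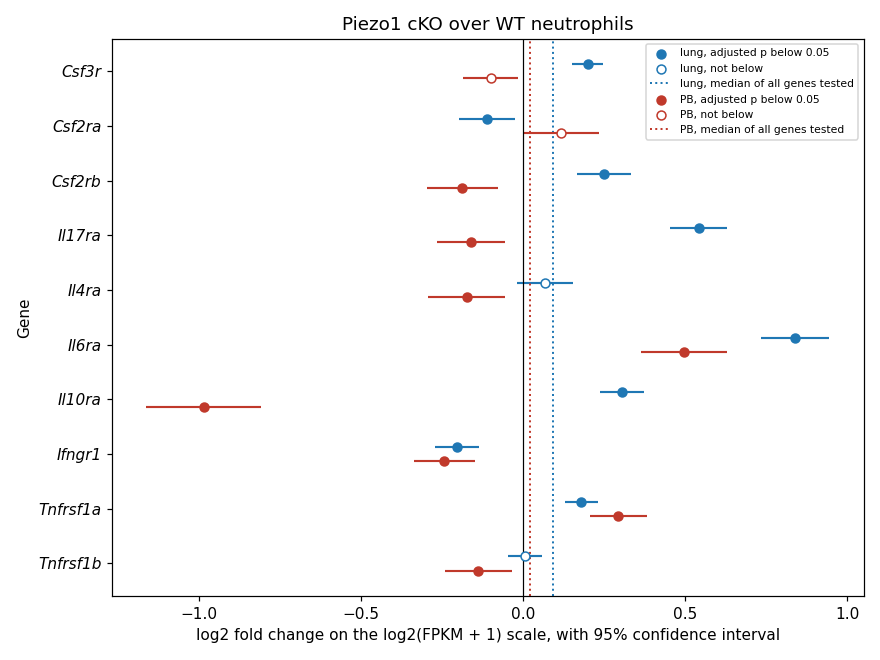
Log2FC of each receptor in cKO over WT (x axis; genes on the y axis) in lung and in PB of the *Piezo1* experiment, n = 2 libraries a group; bars are 95% confidence intervals, filled points passed at an adjusted p under 0.05, and dotted lines are the median of all genes (0.09 in lung, 0.02 in PB). *Il10ra* lies right of 0 in lung and left of 0 in PB, and *Il6ra* lies to the right in both; rescaling turns the sign of *Il4ra* and *Tnfrsf1b* in lung.

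Whether the genotype effect differed between tissues was tested by the interaction, which is the cKO over WT log2FC in lung minus that in PB and uses the same 8 libraries. It passed for 9 of 10 receptors, 7 upward and 2 downward, where 29.7% and 18.5% of 7560 genes passed in these directions. *Il10ra* was the one DEG, with a difference of 1.29 ± 0.08 (adjusted p = 2.1e-05), and 6.85% of genes were DEGs. *Il10ra*, *Il17ra* and *Csf2rb* rose in lung and fell in PB, with differences of 1.29, 0.70 and 0.44. *Il6ra* rose in both tissues, by 0.34 more in lung (adjusted p = 0.00378).

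*Csf3r* had a difference of 0.30 (adjusted p = 3.97e-04). *Csf2ra* differed the other way, with -0.23 (adjusted p = 0.00865), as did *Tnfrsf1a*, with -0.11 (adjusted p = 0.0281). *Il4ra* (0.24, adjusted p = 0.0101) and *Tnfrsf1b* (0.15, adjusted p = 0.0189) did not pass after rescaling, at adjusted p = 0.146 and 0.715. The call of *Tnfrsf1a* was lost without any 1 WT or cKO lung library or either WT PB library, at adjusted p between 0.0641 and 0.101, and that of *Tnfrsf1b* without WT lung library 2, either cKO lung library or WT PB library 1, at adjusted p between 0.0522 and 0.0804. *Ifngr1* gave 0.04 (95% CI -0.06 to 0.14, adjusted p = 0.501), which turned to -0.09 after rescaling.

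Chain ratios in the cKO libraries followed these values. The log2 ratio of *Il10ra* to *Il10rb* was -2.60 ± 0.10 in WT PB and -3.52 ± 0.018 in cKO PB, and 0.04 ± 0.0088 in WT lung and 0.41 ± 0.013 in cKO lung (SD, n = 2), with no overlap between genotypes in either tissue. *Tnfrsf1b* to *Tnfrsf1a* was lower in cKO than in WT in both tissues, at -2.12 ± 0.011 against -1.69 ± 0.011 in PB and -0.15 ± 0.0035 against 0.02 ± 0.027 in lung. *Ifngr1* to *Ifngr2* in lung was 1.07 ± 0.068 in WT and 1.07 ± 0.025 in cKO, which overlapped.

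Among the JAK and STAT genes, 7 of 11 rose and 2 fell in cKO over WT lung, with a median log2FC of 0.28 against 0.09 over all genes, and 1 rose and 1 fell in PB. *Stat5b* was a DEG downward in lung over PB of the tissue experiment, but not in WT libraries of the *Piezo1* experiment (log2FC -0.97, adjusted p = 2.62e-06). It was at 10.5 FPKM in WT lung and 15.3 in cKO lung (log2FC 0.50, adjusted p = 7.45e-04). Of 5 ligands tested in cKO over WT lung, 3 rose and 2 fell. *Tnf* was at 101.9 to 107.1 FPKM in WT lung and 150.4 to 154.4 in cKO lung (log2FC 0.54, adjusted p = 1.03e-04), and *Csf3* at 18.5 to 19.9 and 15.3 to 15.5 FPKM (log2FC -0.30, adjusted p = 0.00519). *Il10* was at 3.41 to 4.27 FPKM in WT lung and 2.34 to 2.68 in cKO lung (log2FC -0.46, adjusted p = 0.0148). Of the partner chains tested, 1 of 5 rose and 1 of 5 fell in cKO lung: *Il13ra1* (log2FC 0.20, adjusted p = 0.00136) and *Ifngr2* (-0.20, adjusted p = 0.00301).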

How the data were processed

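RNA of sorted neutrophils was sequenced as poly(A)-selected 150-base paired reads. Per the study's methods and the submitters' processing notes, the authors trimmed reads with fastp, aligned them with HISAT2 (mm10; versions not given in the sources used here) and counted with HTSeq; the deposited values used here are FPKM per gene and library. The authors' group means of normalised counts (a signal) served only to set the scale when whole reads were recovered from FPKM (100% of values within a relative 1e-4). The tables' fold changes, p-values and q-values were not used, nor were 6 whole-lung libraries.

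Genes were matched by NCBI identifier, by which 27 symbols turned into dates were restored. limma 3.58.1 (R 4.3.3; trend and robust options) was fitted to log2(FPKM + 1) of genes at 1 FPKM or more in at least 3 libraries (tissue) or 2 (*Piezo1*), with groups of the compared samples only; the interaction used all 8 *Piezo1* libraries. Fold changes on this scale understate those of low genes. edgeR 4.0.16 and DESeq2 1.42.0 on recovered reads, a pseudocount of 0.1, no filter, rescaling by median ratios, 1 joint fit and leaving out each library were alternatives. Scripts were tested on simulated data. The study's methods name DESeq2 with the same DEG thresholds. Named genes were the 10 receptors, their 2 most similar genes, listed partner chains, and up to 4 listed DEGs of lung over PB per list. The receptors and gene lists were chosen with earlier results of these data known, which include some of these genes. Some listed genes that meet this rule are not reported here.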

Additional observations from a re-analysis of the deposited data

Results flagged for a closer look

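For 9 of the 10 receptors the cKO over WT effect differed between lung and PB by the interaction test (limma, adjusted p under 0.05, n = 2 libraries a group), among 29.7% of genes that passed upward and 18.5% downward. The difference of log2FC, lung minus PB, was 1.29 for *Il10ra*, 0.70 for *Il17ra*, 0.44 for *Csf2rb*, 0.34 for *Il6ra*, 0.30 for *Csf3r*, 0.24 for *Il4ra*, 0.15 for *Tnfrsf1b*, -0.11 for *Tnfrsf1a* and -0.23 for *Csf2ra*. After rescaling, the calls of *Il4ra* and *Tnfrsf1b* were lost. No group held the 4 libraries needed to look for a single outlying library.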

How the results depend on the processing

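Over 930 refits of single receptors, judged by adjusted p and sign, 833 kept direction and side of the threshold, 18 came to pass, 41 no longer passed, and 38 changed sign. Judged as DEGs, 30 calls were gained and 12 lost. By adjusted p alone the count of receptors called was 9 in lung over PB, 10 in lung over BM, 8 in cKO over WT lung, 8 in cKO over WT PB, 8 in lung over PB of the *Piezo1* WT libraries and 9 in the interaction. In cKO over WT PB, 1 receptor was called with a pseudocount of 0.1, in edgeR with TMM or RLE factors and in DESeq2, and 0 to 1 when 1 library was left out. Sign changes came mostly with scaling (in the order rescaled FPKM, edgeR TMM, edgeR RLE, DESeq2). In lung over PB they were 0.38, 0.38, 0.40 and 0.40 for *Il4ra*, 0.58, 0.58, 0.60 and 0.60 for *Ifngr1*, and 0.41, 0.41, 0.43 and 0.43 for *Tnfrsf1a*. In lung over BM they were 0.49, 0.46, 0.51 and 0.51 for *Il6ra*. In cKO over WT lung they were -0.043, -0.045, -0.043 and -0.043 for *Il4ra* and -0.11, -0.11, -0.10 and -0.10 for *Tnfrsf1b*. In the *Piezo1* WT libraries, lung over PB, they were 0.33, 0.32, 0.34 and 0.34 for *Csf3r* and 0.63, 0.63, 0.65 and 0.65 for *Csf2rb*. In the interaction they were -0.087, -0.043, -0.073 and -0.073 for *Ifngr1*. Leaving out 1 library gave -0.0066 to 0.020 for *Tnfrsf1b* in cKO over WT lung and -2.08e-06 to 0.065 for *Il4ra* in lung over PB of the *Piezo1* WT libraries. The median gene's shift, given in the report, is what rescaling removes.

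Replicate numbers shared no deviation (r between -0.089 and 0.055), so samples were not treated as paired. With the replicate block the count of receptors called was 4 in lung over PB and 6 in lung over BM, as without it. The 2 libraries a group in the *Piezo1* experiment limit its precision, and intervals on reads cover counting error only.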
